A study of Mus musculus with 12 samples.

Results

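The genes described here are 10 ion and water transport genes of the colonic epithelium: Slc26a3, Slc26a2, Slc9a3, Scnn1b, Scnn1g, Atp12a, Slc12a2, Cftr, Aqp8 and Aqp4. They were chosen by name, and each matched 1 row among the 32689 genes of the deposited normalized colon table, so all 10 of 10 were found. Total RNA was sequenced from the colon of 6 male C57BL/6 mice, which were 8 weeks old when obtained. Of these, 3 were labelled ulcerative colitis (UC, mice 1, 2 and 4) and 3 were labelled control (mice 7, 8 and 9). UC mice received dextran sulfate sodium (DSS), a sulfated sugar polymer that damages the gut lining, at 1.5% in drinking water for 7 days. Control mice received the same water without DSS, and all were killed on day 8. The mice had been selected for sequencing by their disease activity score, and the RNA came from homogenised whole colon, so a value mixes epithelium, muscle and immune cells. In such tissue, fewer cells of a type and less RNA per cell cannot be told apart. Blood of the same mouse numbers was sequenced too. It is used here only to show where the genes are counted and to compare neutrophil and inflammatory genes with the labels.

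The colon takes up salt and water and secretes them under control. Absorption across the apical membrane of colonocytes pairs a sodium-proton exchanger with a chloride-bicarbonate exchanger, and in the distal colon the epithelial sodium channel adds sodium uptake that aldosterone regulates. Secretion runs through a basolateral sodium-potassium-chloride cotransporter that loads chloride and an apical chloride channel that releases it. Aquaporins carry water, and a colonic proton-potassium pump recovers potassium. Several of these genes are known to differ along the length of the colon, and loss of salt absorption is a known feature of diarrhoea in colitis.

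The colon libraries held between 69181049 and 103662306 counts, and the 3 libraries labelled UC were the 3 deepest (mean total 1.26 times that of the libraries labelled control). Values below are normalized counts, that is, gene counts divided by 1 size factor per library, which ran from 0.791 to 1.21. The disease labels did not match the inflammatory genes. For all 9 genes of an inflammatory list and all 6 of a neutrophil list, mice 1, 7 and 9 were the 3 highest, of which mouse 1 is labelled UC and mice 7 and 9 are labelled control. The lists share S100a8 and S100a9, and 18.2% of all genes tested in the colon had the same 3 highest libraries. S100a8, a neutrophil calcium-binding protein gene, had 5370, 33.1 and 22.3 normalized counts in mice 1, 2 and 4 and 1888, 75.6 and 13337 in mice 7, 8 and 9. In the blood, mice 1, 7 and 9 were likewise the 3 highest for all 6 neutrophil genes and for 7 of the 9 inflammatory genes. The share over all genes was not computed for blood. The deposited normalized colon table also lists mice 1, 7 and 9 before mice 2, 4 and 8. The paper lists Saa3 and Il6 among the genes most raised in the colon of DSS mice. Here both had 0 normalized counts in mice 2 and 4, labelled UC, and in mouse 8. They were counted only in mice 1, 7 and 9. The groups as labelled therefore do not give the direction that the paper reports for these genes. Where the mismatch arose cannot be told from these sources. Every log2FC below is a difference between groups as labelled and may not be a difference between DSS-treated and untreated mice. Samples were not regrouped, and values of each library are given first. The epithelial identity of the tissue was clear in all 6 libraries. The sum of 8 epithelial markers, such as Krt8 and Epcam, ran from 772110 to 887251 in mice 1, 2 and 4 and from 717357 to 1094230 in mice 7, 8 and 9, a 1.53-fold span over the 6 libraries.

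**Figure D1:**
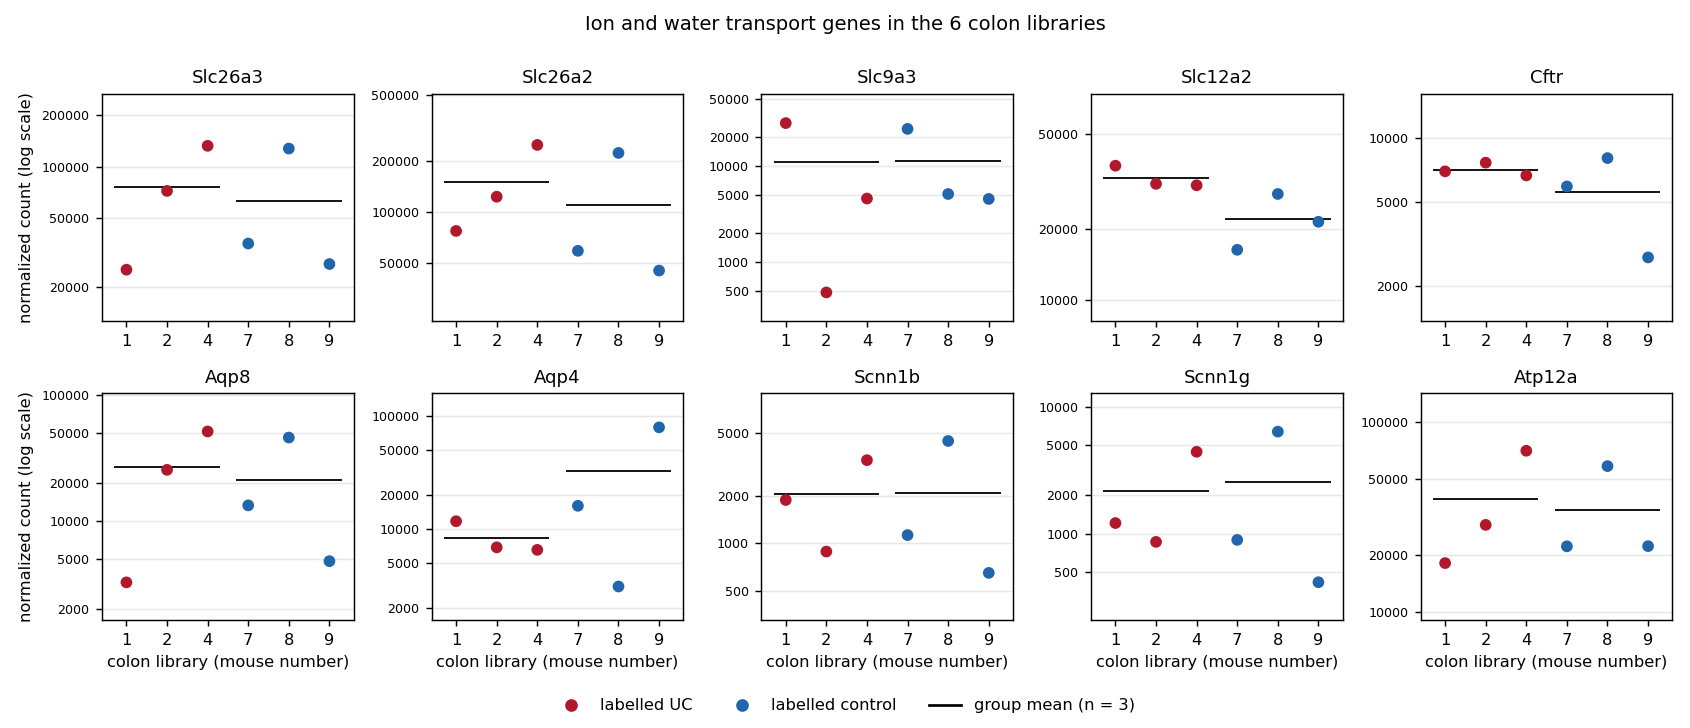
Normalized counts (log scale) of the 10 transport genes in each colon library, with libraries on the x axis by mouse number, red for those labelled UC, blue for those labelled control, and a line at each group mean (n = 3). Slc26a3, Slc26a2, Aqp8 and Atp12a were highest in mice 4 and 8, Slc9a3 in mice 1 and 7, and Aqp4 in mouse 9, and only Slc12a2 had groups that did not overlap.

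Whether the 10 genes differed between UC and control colon was tested with edgeR's quasi-likelihood test over 22238 genes, all 10 of which passed the filter on low counts. None of the 10 was significantly differentially expressed (SDE, meaning a Benjamini-Hochberg adjusted p no higher than 0.05 with |log2FC| above 1), and none had an unadjusted p under 0.05. Among all genes tested, the SDE criteria held for 1 (0.00450%), and the unadjusted p fell under 0.05 for 313 (1.41%). The paper reports far more SDE genes in the colon, with DESeq2 and the same thresholds. The groups as labelled did not reproduce this in the edgeR fit, and a DESeq2 count over all genes is not given here. The absence of calls therefore describes the labelled groups only. DESeq2 and limma-voom also called 0 of the 10, with unadjusted p under 0.05 for 2 genes in DESeq2 (Slc12a2 and Aqp4) and 1 in limma-voom (Slc12a2). With edgeR, the unadjusted p of Slc12a2 was also under 0.05 with RLE normalization (0.0495), library size only (0.0325) and no filter (0.0480). The median log2FC of the 10 genes was 0.21, beside -0.01 over all genes tested, and 6 were higher and 4 lower in the libraries labelled UC. The spread inside the labelled groups was wide. The median standard error (SE) of the log2FC was 0.79 for the 10 genes and 0.38 for all genes, and the median span from the lowest to the highest of the 6 libraries was 2.63 on the log2 scale, beside 1.15 for all genes.

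The apical anion exchangers were high in mice 4 and 8, 1 mouse of each label. Slc26a3 (ENSMUSG00000001225, chromosome 12, 31390871 to 31473917, plus strand, GRCm38) encodes the chloride-bicarbonate exchanger whose loss causes congenital chloride diarrhoea in people. It had 25107, 72441 and 132812 normalized counts in mice 1, 2 and 4, labelled UC, and 35702, 128020 and 27095 in mice 7, 8 and 9, labelled control. Mice 4 and 8 stood highest, mice 1, 7 and 9 lowest, and the labelled groups overlapped. The group means were 76787 ± 53984 (SD, n = 3) and 63606 ± 55950 (SD, n = 3), and the log2FC was 0.25 (SE 0.78, edgeR adjusted p 0.99995). Slc26a2 (ENSMUSG00000034320, chromosome 18, 61192919 to 61211612, minus strand), a sulfate transporter gene that also serves the growth plate, had 77267, 123414 and 250726 in mice 1, 2 and 4 and 58836, 224789 and 44898 in mice 7, 8 and 9. Its order of libraries began with mice 4, 8 and 2, as for Slc26a3, and its log2FC was 0.43 (SE 0.73).

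Slc26a2 and Slc26a3 moved together across the libraries. Per kilobase of exon, the level of Slc26a2 was between 0.849 and 0.972 times that of Slc26a3 in mice 2, 4, 7, 8 and 9, and 1.58 times in mouse 1. Of the 45 pairs among the 10 genes, this pair had the closest pattern, with a root mean square difference of 0.32 between their centred log2 values over the 6 libraries. Among 15841 genes with a mean of at least 100 normalized counts, those closest in pattern to Slc26a3 were Gm16576 (difference 0.14), Sun2 (0.15) and Pla2g10os (0.20). Gm16576 and Pla2g10os are noncoding genes. Sun2 had 2753, 6845 and 11602 normalized counts in mice 1, 2 and 4 and 2915, 11160 and 2214 in mice 7, 8 and 9. The likeness is a description over 6 libraries.

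The genes of sodium uptake had different libraries at the top, mice 1 and 7 for Slc9a3 and mice 8 and 4 for the channel subunits. On normalized counts, mice 2 and 9 were lowest for each, with mouse 9 close to mouse 4 for Slc9a3 (4548 and 4591). Slc9a3 (ENSMUSG00000036123, chromosome 13, 74121457 to 74169442, plus strand) encodes NHE3, the apical sodium-proton exchanger of electroneutral salt absorption. Its normalized counts were 28233, 479.0 and 4591 in mice 1, 2 and 4 and 24543, 5121 and 4548 in mice 7, 8 and 9. Mice 1 and 7, from different labelled groups, were the highest, and mouse 2 was far below all others, so that the highest library was 58.9 times the lowest. The log2FC was -0.06 (SE 1.32). Relative to Slc26a3, the level of Slc9a3 per kilobase ran from 0.00765 in mouse 2 to 1.3 in mouse 1. Set against the 8 epithelial markers, Slc9a3 had 36.6 and 22.4 counts per 1000 epithelial marker counts in mice 1 and 7, 0.574 in mouse 2, and between 4.90 and 6.34 in mice 4, 8 and 9. On that scale too, mice 1 and 7 were highest and mouse 2 lowest, but mouse 9 stood above mice 4 and 8. Among the 8 epithelial markers, Cdx2, an intestinal transcription factor gene, and Krt20, a keratin gene of differentiated cells, were themselves highest in mice 1 and 7. Cdx2 had 12701, 1411 and 1216 normalized counts in mice 1, 2 and 4 and 11069, 1228 and 3808 in mice 7, 8 and 9, and Krt20 had 58168 and 101608 in mice 1 and 7 and at most 45693 in the others. Their part in the values of Slc9a3 was not tested.

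The beta and gamma subunits of the epithelial sodium channel, Scnn1b and Scnn1g, lie near each other on chromosome 7 (121865038 to 121918514 and 121734479 to 121768475, both on the plus strand; ENSMUSG00000030873 and ENSMUSG00000000216). Scnn1b had 1873.5, 883.0 and 3350.5 normalized counts in mice 1, 2 and 4 and 1123, 4433 and 647.0 in mice 7, 8 and 9. Scnn1g had 1212, 861.3 and 4424 in mice 1, 2 and 4 and 892.8, 6382 and 413.9 in mice 7, 8 and 9. Their 6 libraries stood in the same order, from mouse 8 and mouse 4 at the top to mouse 9 at the bottom. The level of Scnn1g per kilobase was above that of Scnn1b in mice 4 and 8, at 1.16 and 1.27 times, and below it in the other libraries, down to 0.563 times in mouse 9. The log2FC was -0.05 (SE 0.80) for Scnn1b and -0.27 (SE 1.10) for Scnn1g. Mouse 2 had an intermediate Slc26a3 value (72441, against 132812 in mouse 4 and 128020 in mouse 8) beside low values of both channel subunits and of Slc9a3.

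Atp12a (ENSMUSG00000022229, chromosome 14, 56365068 to 56388550, plus strand) encodes the catalytic subunit of the colonic proton-potassium pump. It had 18106, 28739 and 70449 normalized counts in mice 1, 2 and 4 and 22171, 58496 and 22222 in mice 7, 8 and 9. Mice 4 and 8 were again highest, and the other 4 libraries lay within 18106 to 28739. The log2FC was 0.17 (SE 0.61). The genes closest in pattern to Atp12a were D10Wsu102e (difference 0.09), AC160637.1 (0.14) and Zfp788 (0.15).

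The secretory genes varied least among the 10. Slc12a2 (ENSMUSG00000024597, chromosome 18, 57878678 to 57946821, plus strand) encodes NKCC1, the basolateral cotransporter that loads chloride into crypt cells. It had 36888, 30932 and 30509 normalized counts in mice 1, 2 and 4 and 16311, 28040 and 21410 in mice 7, 8 and 9. All 3 libraries labelled UC were above all 3 labelled control, and this held also for raw counts, counts scaled to library size and counts per epithelial marker count. The groups of Cftr were separate on raw counts alone. Such a split was found for 1 of the 10 genes and for 5.66% of the 22182 genes tested that have a normalized count, which were 3.51% higher and 2.15% lower in the libraries labelled UC. The group means were 32776 ± 3568 (SD, n = 3) and 21920 ± 5882 (SD, n = 3), and the log2FC was 0.56 (SE 0.24, edgeR unadjusted p 0.053, adjusted p 0.99995). The difference did not pass the test over all genes. Cftr (ENSMUSG00000041301, chromosome 6, 18170687 to 18322768, plus strand), the apical chloride channel gene, had 6980, 7672 and 6677 normalized counts in mice 1, 2 and 4 and 5926, 8062 and 2740 in mice 7, 8 and 9. Mouse 9 was low and the other 5 libraries lay close together. The log2FC of Cftr was 0.33 (SE 0.38). The level of Slc12a2 per kilobase was between 1.96 and 5.56 times that of Cftr.

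The water channels differed from each other. Aqp8 (ENSMUSG00000030762, chromosome 7, 123462291 to 123468004, plus strand), the aquaporin of surface colonocytes, had 3265, 25439 and 51237 normalized counts in mice 1, 2 and 4 and 13309, 45832 and 4809 in mice 7, 8 and 9. Mice 1 and 9 were lowest and mice 4 and 8 highest, a span of 15.7-fold, and the log2FC was 0.29 (SE 1.09). The genes closest in pattern to Aqp8 were Cps1 (difference 0.44), Gm44224 (0.48) and the posterior Hox gene Hoxd11 (0.53). Aqp4 (ENSMUSG00000024411, chromosome 18, 15389496 to 15410982, minus strand), a basolateral aquaporin better known from astrocytes, had 11699, 6855 and 6511 in mice 1, 2 and 4 and 16031, 3078 and 79787 in mice 7, 8 and 9. Its 3 highest values were in mice 9, 7 and 1, and mouse 9 alone was 25.9 times mouse 8. The log2FC was -1.97 (SE 1.03, edgeR unadjusted p 0.101), the only 1 of the 10 with an absolute value over 1, beside 7.31% of all genes tested, and it was -0.23 without mouse 9. The level of Aqp4 per kilobase was 4.21 times that of Aqp8 in mouse 9 and 0.0170 times in mouse 8.

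**Figure D2:**
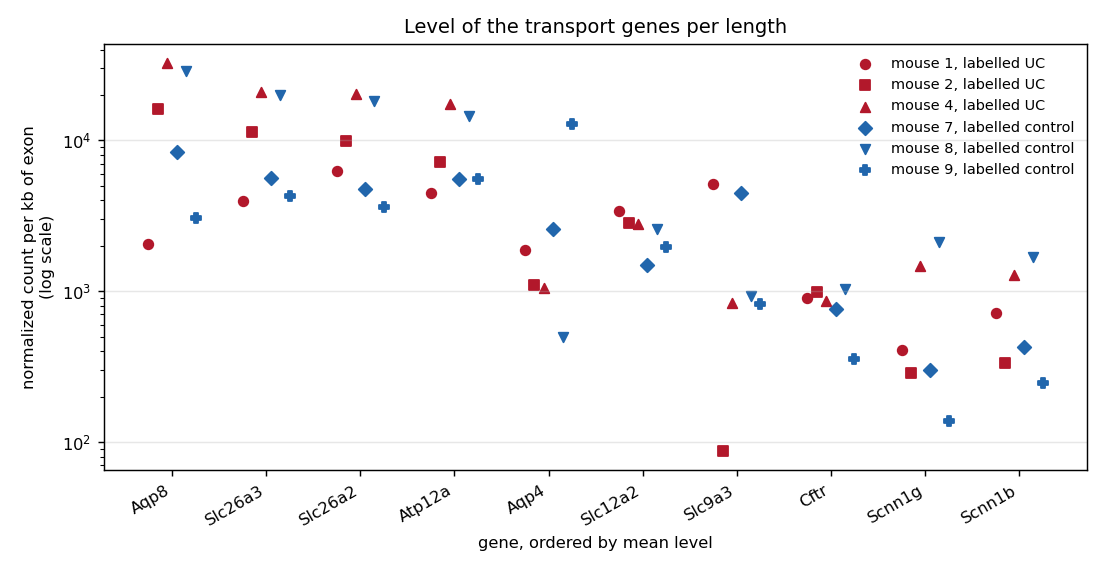
Level per length, as normalized counts per kilobase of exon (log scale), of each transport gene in the 6 colon libraries, ordered by the mean of the libraries, with a symbol per mouse and red or blue for the label. Aqp8 had the highest mean (15169) and Scnn1b the lowest (779), and the ranges of all neighbours in the order overlap.

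Per kilobase of exon, the mean level over the 6 libraries was highest for Aqp8 (15169), followed by Slc26a3 (11022), Slc26a2 (10508) and Atp12a (9138). Aqp4 (3315), Slc12a2 (2504) and Slc9a3 (2044) were intermediate, and Cftr (817), Scnn1g (790) and Scnn1b (779) were lowest. The ranges over libraries overlapped for all 9 pairs of neighbours in this order. Within libraries, no pair of neighbours kept the order in all 6: Slc26a3 was above Slc26a2, and Atp12a above Aqp4, in 5 of 6, and the other pairs kept it in 2 to 4 of 6. In mouse 1, Slc9a3 at 5130 stood above Slc26a3 at 3942 and Aqp8 at 2065, and in mouse 9 Aqp4 was the highest of the 10 at 12801, beside Aqp8 at 3041.

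The 5′ flanks of 3 genes with different libraries at the top are shown for comparison: Slc26a3 and Aqp8, highest in mice 4 and 8, and Slc9a3, highest in mice 1 and 7. The sequences are RefSeq promoter windows of GRCm38.p6, which held 6 of the 10 genes, cut to the bases before the start and outside annotated exons of the gene, on the plus strand, written 5′ to 3′. Capitals mark, on either strand, the letters TTTAT, as in sites of Cdx and posterior Hox factors, the letters CAAAG, as in sites of HNF4, and the palindromic HNF1 motif. These factors are intestinal transcription regulators. The Slc26a3 window ends at the RefSeq start, which lies inside the GENCODE gene, and its reverse strand match to TTTAT lies in a TATA-box-like run. The motifs were chosen after the sequences had been read.
Slc26a3 (chr12:31437969-31438216): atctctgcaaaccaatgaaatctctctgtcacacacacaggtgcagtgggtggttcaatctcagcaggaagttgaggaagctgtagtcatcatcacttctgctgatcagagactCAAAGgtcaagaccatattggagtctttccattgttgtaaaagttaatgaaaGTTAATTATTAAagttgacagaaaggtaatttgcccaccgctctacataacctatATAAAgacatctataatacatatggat
Aqp8 (chr7:123462044-123462290): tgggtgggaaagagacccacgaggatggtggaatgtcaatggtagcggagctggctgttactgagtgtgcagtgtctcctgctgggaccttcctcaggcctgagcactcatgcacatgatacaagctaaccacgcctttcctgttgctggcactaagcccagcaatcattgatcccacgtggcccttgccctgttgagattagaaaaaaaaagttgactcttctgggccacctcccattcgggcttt
Slc9a3 (chr13:74121163-74121412): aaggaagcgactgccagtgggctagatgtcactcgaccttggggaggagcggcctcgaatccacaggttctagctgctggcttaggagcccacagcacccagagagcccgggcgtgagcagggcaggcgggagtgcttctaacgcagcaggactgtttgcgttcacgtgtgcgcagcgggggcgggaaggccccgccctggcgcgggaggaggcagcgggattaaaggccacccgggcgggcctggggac
The Slc26a3 window held all 3 motifs, CAAAG from 136 to 132 bases before the start, the HNF1 motif (GTTAATTATTAA) from 84 to 73 and TTTAT on the reverse strand from 29 to 25. The windows of Aqp8, Slc9a3 and Cftr held none of them, that of Scnn1b held CAAAG and that of Scnn1g held TTTAT. Over all 32851 promoter windows of 250 bases, 37.3% held TTTAT, 48.6% CAAAG and 20 (0.0609%) the HNF1 motif. GC content was 38.3% in the Slc26a3 window, 53.0% in that of Aqp8 and 67.6% in that of Slc9a3. The matches are descriptions of these letters and not binding sites.

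Across libraries, 6 of the 10 genes (Slc26a3, Slc26a2, Aqp8, Scnn1b, Scnn1g and Atp12a) had mice 4 and 8 as their 2 highest libraries, as did 15.0% of the genes tested. Mouse 4 is labelled UC and mouse 8 control. For 4 genes (Slc26a3, Slc26a2, Aqp8 and Atp12a) the 3 highest libraries were mice 2, 4 and 8, beside 14.7% of genes, and for Aqp4 they were mice 1, 7 and 9, beside 18.2%. These shares are descriptions of libraries and not of a labelled group.

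**Figure D3:**
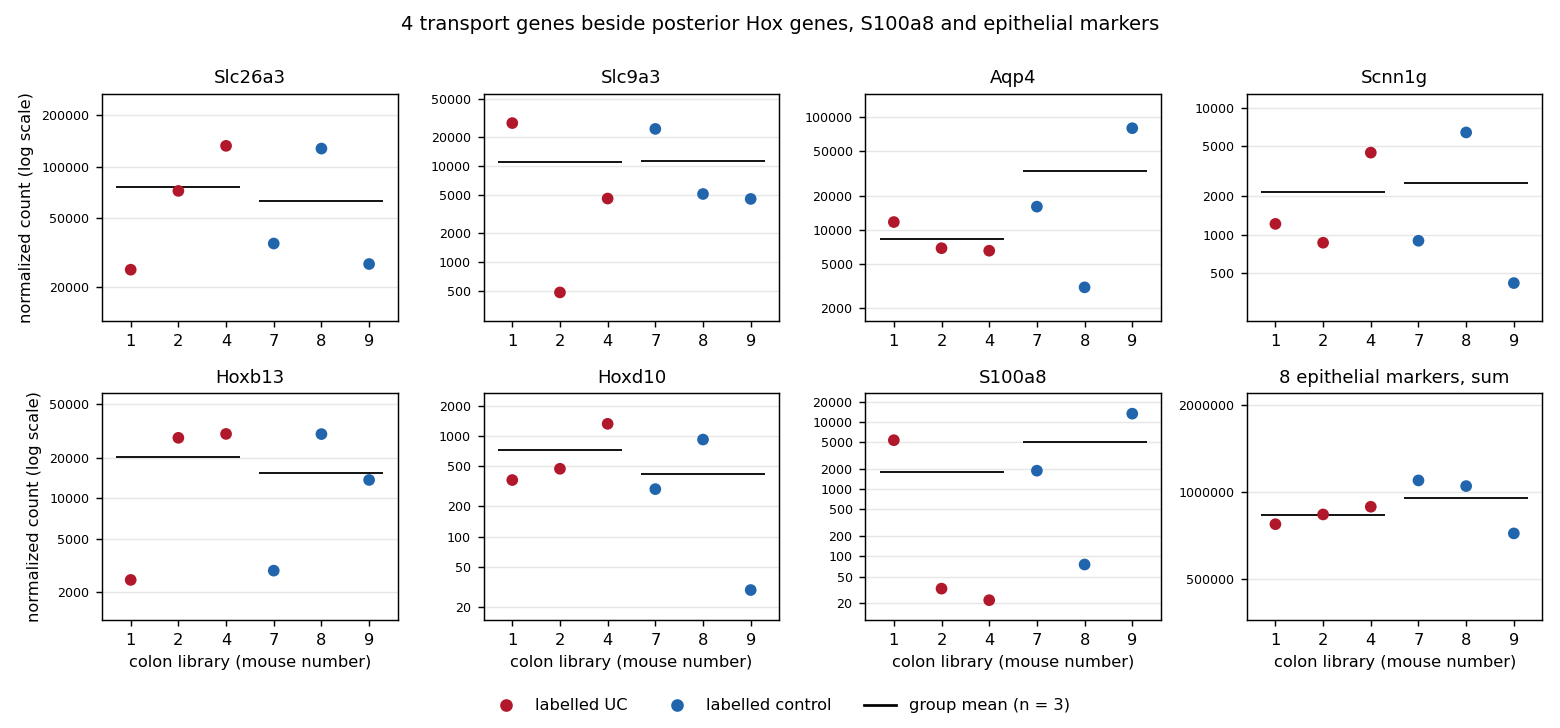
Normalized counts (log scale) of 4 transport genes (top row) and of Hoxb13, Hoxd10, S100a8 and the sum of 8 epithelial markers (bottom row) in each colon library, red for those labelled UC, blue for those labelled control, with a line at each group mean (n = 3). Slc9a3 was highest in mice 1 and 7, which had the lowest Hoxb13 values (2471 and 2897), while the epithelial sum spanned 1.53-fold, although its members Cdx2 and Krt20 were highest in mice 1 and 7.

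Genes that mark position along the gut and other cell types are given beside these values. Of 6 posterior Hox genes, which mark the hind end of the gut, all 6 had their 3 highest values in mice 2, 4 and 8. Their summed normalized counts ran from 4383 to 47204 over mice 1, 2 and 4 and from 5753 to 48619 over mice 7, 8 and 9. Hoxb13 had 2471, 28174 and 30119 normalized counts in mice 1, 2 and 4 and 2897, 30035 and 13692 in mice 7, 8 and 9, so mice 1 and 7, highest for Slc9a3, were lowest for Hoxb13. Hoxd10 had 29.7 in mouse 9, the library highest for Aqp4 and lowest for both channel subunits, and at least 297.2 in the others. The other posterior Hox genes did not all share this low end. Hoxd11 was also lowest in mouse 9 (261.8), and Hoxd12 was equally low in mice 1 and 9 (54.0). Hoxd13, Hoxa13 and Hoxb13 were lowest in mouse 1 (619.4, 461.3 and 2471), beside 1472, 3011 and 13692 in mouse 9. Smooth muscle markers (6 of 6 found) summed to 228690 to 534675 over mice 1, 2 and 4 and to 128101 to 362013 over mice 7, 8 and 9, and mouse 9 was lowest. Neutrophil markers (6 of 6 found) summed to 181.1 to 12638 and to 358.0 to 39523, with mouse 9 highest. Squamous markers (8 of 8 found) summed to 201.3 to 390.2 and to 240.8 to 869.2. Small intestine markers (6 of 6 found) summed to 2035 to 3049 and to 274.4 to 2647, with Lct at most 29.0. Sis, the sucrase-isomaltase gene, had 1279 in mouse 1 and 346.5 in mouse 7, the libraries highest for Slc9a3, and at most 18.3 in the others. Fabp6 was also highest in mice 7 and 1 (399.6 and 190.4). Rbp2 of the same list went another way, with 559.8, 1792 and 2859 in mice 1, 2 and 4 and 258.0, 2459 and 145.8 in mice 7, 8 and 9. The list thus had no single order of libraries. None of these lists had a gene at 0 in all 6 libraries. The part of tissue position, muscle or inflammatory cells in the values of the transport genes was not tested.

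Mice 1 and 8 are the libraries of each label whose inflammatory genes did not go against the label, and their values are set side by side without replicates or a test. Between them, 8 of the 10 genes differed over 2-fold, beside 25.1% of 21571 genes counted in both. Lower in mouse 1 were Aqp8 (0.0712 times mouse 8), Scnn1g (0.190), Slc26a3 (0.196), Atp12a (0.310), Slc26a2 (0.344) and Scnn1b (0.423), beside 9.69% of genes. Higher in mouse 1 were Slc9a3 (5.51 times) and Aqp4 (3.80 times), beside 15.5% of genes. Slc12a2 (1.32 times) and Cftr (0.866 times) were within 2-fold. These ratios compare 2 libraries, which also differ in Hoxb13.

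**Figure D4:**
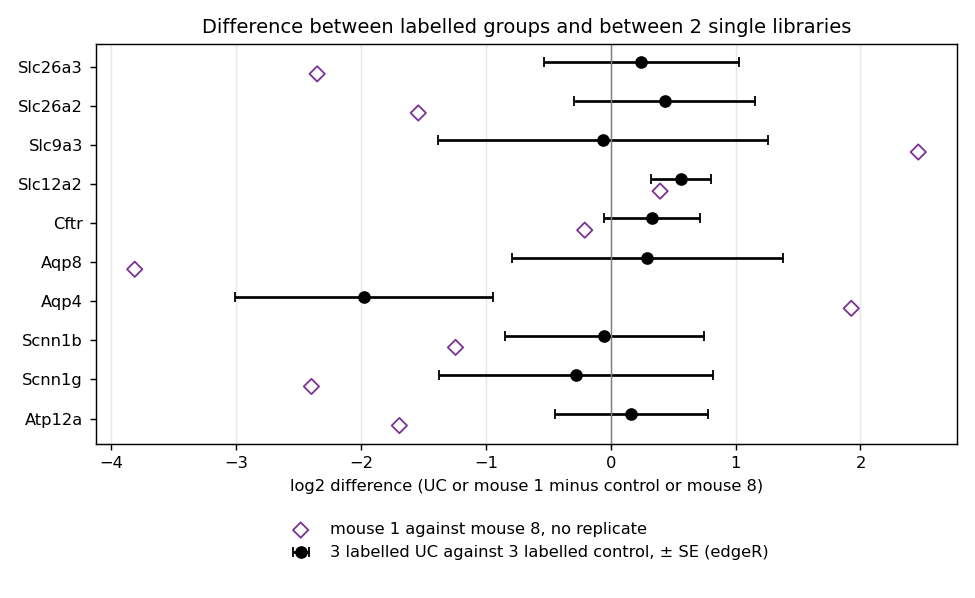
Log2 difference of each transport gene between the labelled groups (black points, labelled UC minus labelled control, bars ± SE from edgeR) and between mouse 1 and mouse 8 (open diamonds, no replicates). The log2FC of the labelled groups lies within 1 SE of 0 for 8 of the 10 genes, and Slc12a2 (0.56, SE 0.24) and Aqp4 (-1.97, SE 1.03) lie farther from 0.

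The direction between labelled groups rested on few libraries. Without mouse 4, the log2FC turned to -0.39 for Slc26a3, -0.14 for Slc26a2, -0.58 for Aqp8 and -0.56 for Atp12a. Without mouse 8 it rose to 1.29, 1.53, 1.55 and 0.81 for the same genes, and to 1.20 for Scnn1b and 1.72 for Scnn1g, and the lowest adjusted p among the 10 genes was then 0.540 (edgeR). Without mouse 8 the unadjusted p was under 0.05 for 3 of the 10 genes (Slc12a2, Aqp4 and Slc26a2) and for 5 of the other listed transport genes, and without mouse 4 for 0 and 3. Slc9a3 ran from -2.19 without mouse 1 to 1.19 without mouse 7. Slc12a2 kept its direction, from 0.39 without mouse 7 to 0.80 without mouse 8, and Cftr from 0.00 without mouse 9 to 0.71 without mouse 8.

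Of 36 other transport genes listed by role, 34 passed the filter, 23 were higher and 11 lower in the libraries labelled UC, and 0 were SDE (edgeR; 0 with an unadjusted p under 0.05, and 0 SDE with DESeq2 or limma-voom). Their median log2FC was 0.13, and none had groups that did not overlap. The sodium pump and potassium channel genes (8 of 8 tested, 6 higher, 2 lower, median log2FC 0.30) held the widest range among the other genes with a mean of at least 100. Fxyd4, a regulator of the sodium pump in the distal colon and kidney, had 321.1, 9659 and 15502 normalized counts in mice 1, 2 and 4 and 399.6, 14077 and 1344 in mice 7, 8 and 9. It was lowest in mice 1 and 7, the libraries highest for Slc9a3, and its log2FC was 0.66 (SE 1.55).

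Anion exchange and bicarbonate transport genes (4 of 4 tested) were split, 2 higher and 2 lower. Slc4a4, the basolateral sodium-bicarbonate cotransporter gene, had 10703, 29381 and 38137 normalized counts in mice 1, 2 and 4 and 7493, 48030 and 3964 in mice 7, 8 and 9, with mice 8, 4 and 2 highest, as for Slc26a3 but with mouse 8 first. Slc26a6, an apical anion exchanger gene, had the lowest log2FC of the other genes tested (-0.40, SE 0.34). Among chloride secretion genes (8 of 8 tested, 6 higher, 2 lower), Ano1, a calcium-activated chloride channel gene, had 3047, 22362 and 30046 in mice 1, 2 and 4 and 3751, 32554 and 6859 in mice 7, 8 and 9. Best2, the bestrophin channel gene of colonic goblet cells, had a log2FC of 0.68 (SE 0.88) and its highest values in mice 4, 8 and 2. Guca2a, which encodes guanylin, had 65230 and 71113 in mice 1 and 7 and at most 20484 in the others, and was named after its values were seen.

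Of the genes of the epithelial sodium channel and the aldosterone response (6 of 6 tested, 4 higher, 2 lower), Nedd4l, the ubiquitin ligase that removes the channel from the membrane, had a log2FC of -0.28 (SE 0.32), with 16042, 9481 and 9666 normalized counts in mice 1, 2 and 4 and 19218, 10265 and 12723 in mice 7, 8 and 9. The alpha subunit Scnn1a, named after its values were seen, had 4612, 8558 and 10656 and then 4150, 16308 and 4177, again with mice 8 and 4 highest. Sodium-proton exchange genes and scaffolds (5 of 5 tested) had a median log2FC of -0.01. Of the other aquaporins, 3 of 5 were tested. Aqp7 had the largest log2FC of the list (1.80, SE 1.59) on values of 108.0 in mouse 1 and at most 21.4 in the others, and Aqp3 and Aqp5 did not exceed 31.6 in any library.

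**Figure D5:**
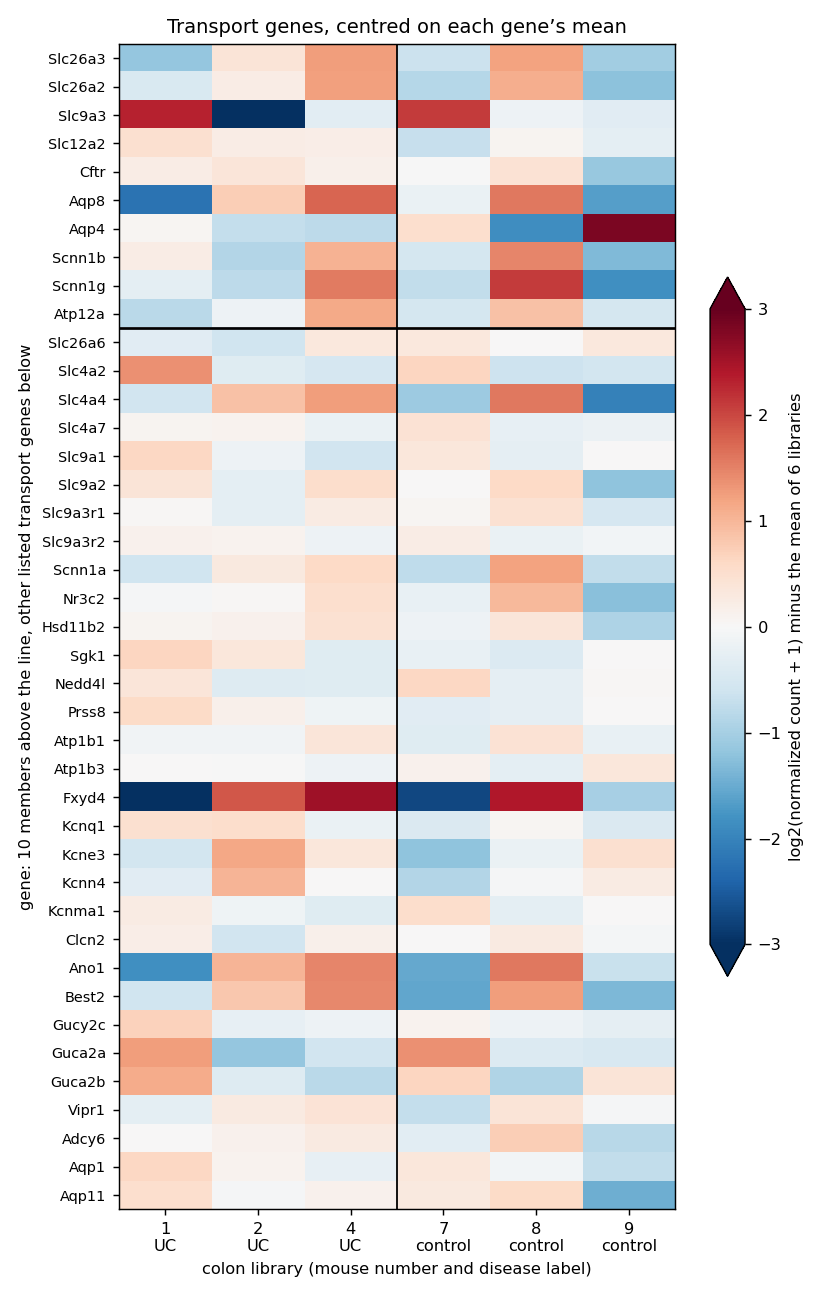
Log2(normalized count + 1) of each transport gene minus its mean over the 6 colon libraries (colour, clipped at the ends of the scale), with the 10 genes above the line, other listed genes with a mean of at least 100 below it (1 not shown), and libraries by mouse number and label on the x axis. Mice 4 and 8 share high values of Slc26a3, Aqp8, Scnn1g, Fxyd4, Slc4a4 and Ano1 although their labels differ, and Slc9a3 is high in mice 1 and 7.

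In the blood libraries the same genes were hardly counted. Scnn1b, Scnn1g and Aqp4 had 0 counts in all 6 blood libraries, which held 80867247 to 142536804 counts each, and Slc26a3, Slc9a3, Cftr, Aqp8 and Atp12a had at most 24, 5, 6, 7 and 4 counts. Slc26a2 (432 to 941 counts) and Slc12a2 (276 to 801) were counted in each blood library. In the colon, by contrast, the lowest count of any of the 10 genes in a library was 460, for Scnn1g in mouse 9. The paper reports fewer uniquely mapped reads in blood than in colon, and a globin removal kit was used for blood only. The count totals therefore do not rank the tissues by depth. Exons of Cftr and Atp12a overlap antisense genes (Gm15592 and Gm10873), and both antisense genes had 0 counts in all 6 colon libraries.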

How the data were processed

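Per the labels and the study's methods, the authors removed ribosomal RNA, trimmed the reads, mapped them to GRCm38 with STAR and quantified genes with StringTie 1.3.4c at default options, with no strand setting stated. The deposited counts are whole numbers that the authors derived from StringTie's coverage, not tallies of reads, so overlapping genes share coverage. The deposited normalized counts are treated as a signal: the authors scaled each library with a DESeq2 size factor, and count over value gave the same factor for 100% of genes of a library. The blood table of normalized values was not used, and blood values are raw counts.

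Groups came from the labels for disease state and from the tissue characteristic, which the source name contradicts in every sample. Each library is 1 mouse. The 10 genes, the other transport genes and the marker lists were chosen with earlier results of these data known. Counts of the 6 colon libraries were fitted in R 4.3.3 with edgeR 4.0.16 (TMM, filterByExpr, glmQLFit, glmQLFTest, Benjamini-Hochberg over all genes), and SE is the log2FC over the square root of F. TMM factors ran from 0.899 to 1.12, and the biological coefficient of variation was 0.503. Colon depth was 69181049 to 103662306 counts. Levels per kilobase used the union of GENCODE M21 exons. Named genes were all 10, and of the others those without overlap between groups, the 2 largest and 2 smallest log2FC, the 3 widest ranges with a mean of at least 100, and the 3 genes nearest to Slc26a3, Aqp8 and Atp12a by centred log2(normalized count + 1).

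Alternatives were RLE, library size only, scaling to epithelial marker counts, no filter, a mean of at least 10 counts, DESeq2 1.42.0, limma-voom (limma 3.58.1), the adjusted p alone, each mouse left out, and mouse 1 against mouse 8. The edgeR script was tested on counts simulated at a dispersion of 0.05, where it recovered 53% of 2-fold and 100% of 4-fold changes. The biological coefficient of variation fitted here, 0.503, is the square root of a larger dispersion. Recovery at the spread of these data was therefore not measured. The values of 1 listed gene are not reported here.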

Additional observations from a re-analysis of the deposited data

How the results depend on the processing

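The number of the 10 genes called SDE was 0, and 0 of the other listed transport genes were called, under every alternative run. No paired analysis was possible because the groups compared, UC and control colon, share no mouse number. Of 140 recomputed log2FC values, 31 turned direction. The 140 include values with a mouse left out and values of mouse 1 against mouse 8. Changes of normalization, filter or method turned the direction only for Slc9a3, Scnn1b and Scnn1g. None of the values tested passed the SDE criteria, although several moved across an absolute log2FC of 1. Scaling to epithelial marker counts gave 0.33 for Slc9a3, 0.24 for Scnn1b and 0.018 for Scnn1g. Library size only gave 0.055 for Scnn1b, and limma-voom gave 0.33 for Scnn1b and 0.43 for Scnn1g, and moved Aqp4 to -0.98. With 1 mouse left out, the log2FC ran from -0.39 to 1.29 for Slc26a3, -0.14 to 1.53 for Slc26a2, -2.19 to 1.19 for Slc9a3, -0.58 to 1.55 for Aqp8, -0.60 to 1.20 for Scnn1b, -1.32 to 1.72 for Scnn1g and -0.56 to 0.81 for Atp12a. Mouse 1 against mouse 8 turned the log2 difference to -2.35 for Slc26a3, -1.54 for Slc26a2, 2.46 for Slc9a3, -0.21 for Cftr, -3.81 for Aqp8, 1.93 for Aqp4 and -1.69 for Atp12a, and gave -2.40 for Scnn1g. The cause was not tested.

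Each of the 10 genes had at least 460 counts in each colon library. The libraries labelled UC were the deepest, and the part of depth in the values was not tested. The limits are the 3 mice per label, the disagreement of the disease labels with the inflammatory genes, and the posterior Hox genes, which differ between libraries within each label.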
